A study of Mus musculus with 19 samples.

Results

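The genes described here are 7 genes of the cascade that runs from RAS through RAF and MEK to ERK: Hras, Nras, Braf, Araf, Map2k1, Map2k2 and Mapk3. They were taken by gene identity, as the rows whose Ensembl identifier carries one of these symbols in GENCODE M21, and they are 7 of the 34807 genes in the table. All 7 passed the filter on low values (at least 5 counts in at least 1 library), as did 32031 genes in all.

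Bulk RNA came from 15 tumours of mouse skin and from normal skin of 4 samples, 1 library each. All tumours carried the BRAFV600E allele, switched on by a Cre recombinase that needs tamoxifen to act. In 6 tumours the enzyme was driven by the promoter of Ivl, a gene of committed and suprabasal keratinocytes, in 5 by that of Krt5 (K5) and in 4 by that of Krt14 (K14), the last 2 being genes of the basal layer. Normal skin was labelled WT. The mice were female, on a C57BL/6J background, and the labels give 7 to 20 weeks as the age at which the allele was induced. Recombination was induced on the shaved back with tamoxifen in the Ivl model and with 4-hydroxytamoxifen in the K5 and K14 models, so the agent cannot be told apart from the promoter. The tumours were labelled squamous cell carcinoma and were sequenced whole, so they could hold stroma as well as tumour cells. K5 and K14 tumours were treated as 1 group (K5/K14, 9 tumours) against skin and against Ivl tumours, and were also compared with each other. The labels do not say that the samples of a group came from separate animals, so p-values measure the spread between these samples.

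RAS proteins are small GTPases at the inner face of the cell membrane. Loaded with GTP, they recruit RAF kinases, RAF phosphorylates the MEK kinases, and MEK phosphorylates ERK, which acts on other kinases and on transcription factors. In the epidermis the cascade carries signals from growth factor receptors and integrins, and activating mutations of it are common drivers of skin tumours. BRAFV600E encodes a RAF kinase that is active without RAS. Such control acts mostly on the proteins, by GTP loading and phosphorylation, and RNA levels do not measure it.

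Counts per gene add reads of the mutant and the wild-type allele of Braf, so no value of Braf given here separates them.

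Values are CPM, a gene's count as a share of its library's total on a scale that makes libraries of any depth comparable. They are corrected by trimmed mean of M values (TMM), a factor per library from a trimmed average of log ratios between libraries. After it the median log2 fold change of all genes against skin was still -0.46 in Ivl and -0.60 in K5/K14 tumours. Fold changes are on the log2 scale with their standard error (SE), and a gene was called when the Benjamini-Hochberg adjusted p of edgeR's quasi-likelihood test over all 32031 genes was under 0.05. The libraries held 45715309 to 72609771 counts, which is more than the number of reads that the labels give, and how pairs were counted is not given in the sources used here. Their TMM factors were 0.806 to 1.15 in tumours and 1.43 to 1.66 in skin, so tumour-to-skin differences depend on the scaling more than differences between tumours do. The table had been adjusted for a sequencing batch by its authors. Ivl 1, Ivl 2, Ivl 3 and K5 1 carried the trace of that adjustment: for 96.6% of 13954 genes, all 7 genes described here among them, their joint mean was no more than 0.1 log2 away from that of the remaining 15. The remaining 15 hold the 4 skin libraries and 11 tumours, whereas the set holds tumours only. For a gene that differs between skin and tumours, such a match places the set nearer to skin than the other tumours are. How far this moved the results over all libraries was not tested. Results are therefore also given within the 15 other libraries. As a check of the labels, the summed level of 8 keratinocyte markers was 38201 to 112915 CPM in tumours and 5578 to 11040 CPM in skin. The summed levels of 5 other marker lists overlapped with skin, for fibroblast (6 markers, 1464 to 14908 CPM in tumours), leukocyte (6, 95.1 to 2785), adipocyte (5, 69.7 to 3474), endothelial (4, 66.7 to 332.4) and melanocyte genes (4, 2.83 to 125.8). Single markers moved within those lists. S100a8, a gene of neutrophils and of stressed keratinocytes, carried most of the leukocyte sum in tumours and rose from a mean of 10.5 CPM in skin to 966.5 in Ivl and 1403 in K5/K14 tumours. Fabp4 carried most of the adipocyte sum in Ivl tumours, at a mean of 1183 CPM against 220.1 CPM in skin. It was called higher there within the 15 libraries and not over all libraries. In K5/K14 tumours 2 of 6 leukocyte (Ptprc and Cd3e), 2 of 5 adipocyte (Plin1 and Lep) and 1 of 6 fibroblast markers (Dcn) fell, and 1 of 4 endothelial markers (Tie1) rose. In Ivl tumours 1 of 4 melanocyte markers (Pmel) fell. Without the set of 4, 4 of 4 melanocyte markers fell in K5/K14 and 3 of 4 in Ivl tumours. There 2 fibroblast, 2 leukocyte and 1 adipocyte markers also fell in Ivl tumours, and 1 fibroblast, 3 leukocyte and 3 adipocyte markers in K5/K14 tumours. In the same fit 1 leukocyte marker rose in each tumour group and 1 endothelial marker in K5/K14 tumours. The part of these changes in the results was not tested. No marker was at 0 in all libraries of a group.

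Against normal skin, 5 of the 7 genes rose in both tumour groups: Hras, Nras, Map2k1, Map2k2 and Mapk3, by 0.70 to 1.28 log2 in Ivl tumours and by 0.87 to 1.58 log2 in K5/K14 tumours. Of all genes tested, 20.4% were called higher and 15.5% lower in Ivl tumours, and 23.2% higher and 38.9% lower in K5/K14 tumours. Braf fell in K5/K14 tumours to 0.499 of its skin level, with SE 0.20 on a log2 difference of -1.0. In Ivl tumours its difference of -0.51 ± 0.23 did not pass the test over all libraries. Araf differed by -0.08 ± 0.15 and -0.06 ± 0.14 and was not called. Between Ivl and K5/K14 tumours, and between K5 and K14 tumours, none of the 7 was called. Of all genes 1.77% were called higher and 0.593% lower in Ivl than in K5/K14 tumours, and 0% in either direction between K5 and K14 tumours.

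**Figure D1:**
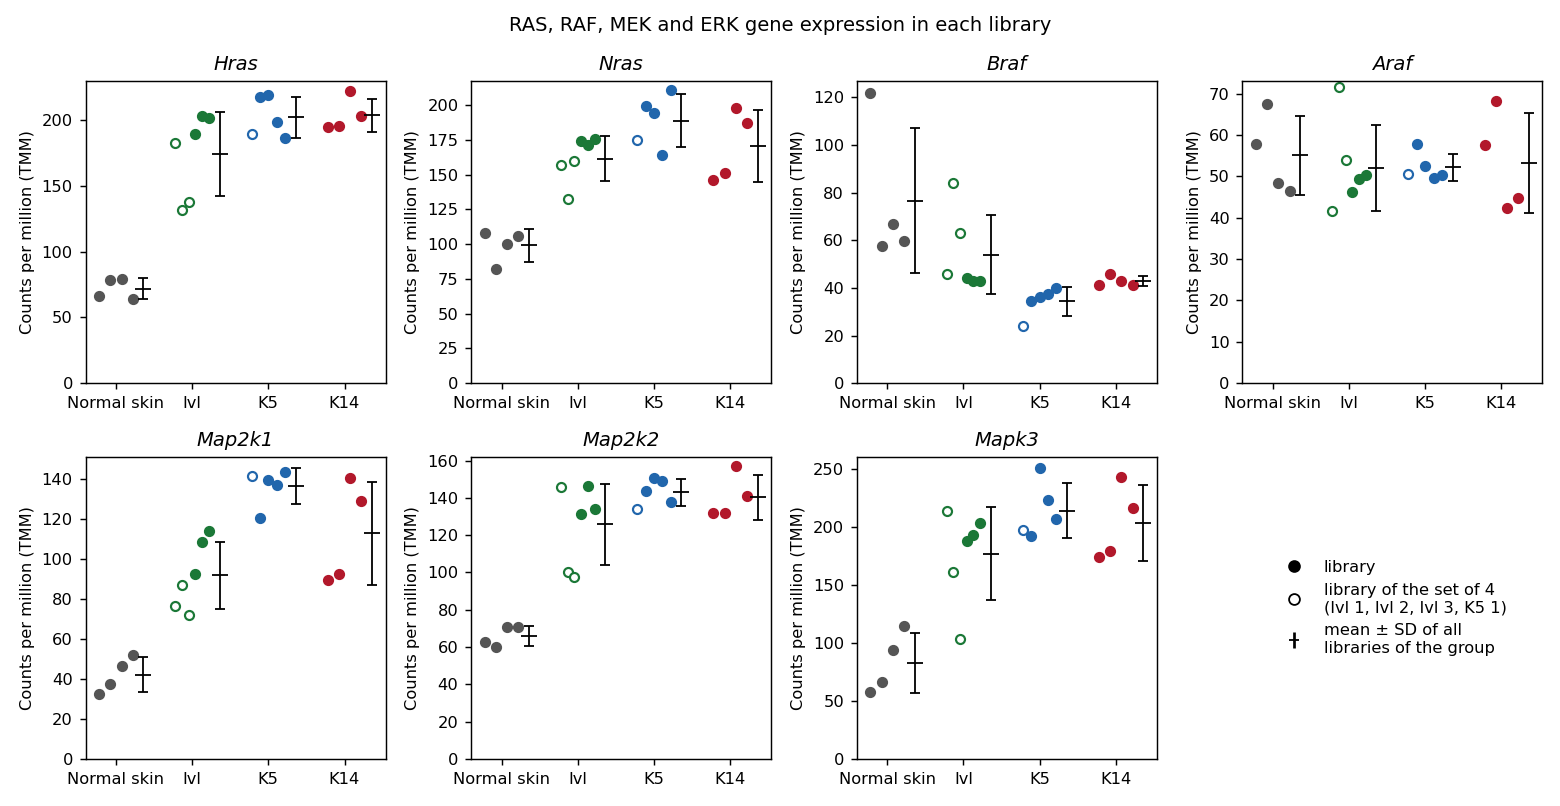
CPM (TMM-scaled) of each gene in each of the 19 libraries, by group; open circles are the set of 4 libraries that carry the trace of the batch adjustment, and the bar beside each group is its mean ± SD. Hras, Nras, Map2k1 and Map2k2 lie above skin in all 15 tumours, Mapk3 overlaps skin only through Ivl 3 (103.5 CPM), Braf is highest in skin 1 (122.0 CPM), and Araf overlaps in all groups.

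Hras encodes H-Ras, whose activating mutations are typical of chemically induced skin tumours in mice. It was at 66.3, 78.5, 79.0 and 63.7 CPM in the 4 skin libraries. The K5 tumours held 189.5, 217.1, 219.0, 198.4 and 186.0 CPM and the K14 tumours 194.7, 195.3, 221.7 and 203.0 CPM. The 6 Ivl tumours ranged from 131.4 to 203.3 CPM with a median of 185.6. Every tumour lay above every skin library, and the lowest tumours were Ivl 2 and Ivl 3. The rise was 1.28 ± 0.13 log2 in Ivl tumours (edgeR adjusted p = 1.8e-05) and 1.5 ± 0.13 log2 in K5/K14 tumours (edgeR adjusted p = 7.4e-07), or 2.42-fold and 2.82-fold.

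Nras encodes N-Ras, which shares its effector region with H-Ras and differs in the tail that anchors it in membranes. Skin held 108.3, 82.2, 100.4 and 105.7 CPM. The K5 tumours were at 174.9, 199.3, 194.5, 164.2 and 210.9 CPM and the K14 tumours at 146.0, 150.9, 197.7 and 187.3 CPM. Ivl tumours spanned 132.2 to 175.7 CPM with a median of 165.5. Again no tumour overlapped skin, though the step was smaller than for Hras. The differences were 0.70 ± 0.13 log2 (edgeR adjusted p = 0.00024) in Ivl and 0.87 ± 0.12 log2 (edgeR adjusted p = 1.1e-05) in K5/K14 tumours. These rises were lost in both tumour groups when libraries were scaled by their totals alone, as described with the other scalings.

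Hras rose more than Nras. Within a library the log2 ratio of Hras to Nras counts was -0.71, -0.07, -0.35 and -0.73 in skin, so Nras had more counts in all 4, with the longer annotated exons. In tumours it lay between -0.21 and 0.41, with Ivl 2, Ivl 3 and K5 5 below 0. A ratio within a library does not depend on how libraries are scaled. The mean ratio rose by 0.56 log2 in Ivl tumours (n = 6 against 4, two-sided exact permutation p = 0.0095, adjusted over 12 tests 0.023). It rose by 0.64 log2 in K5/K14 tumours (n = 9 against 4, exact permutation p = 0.0028, adjusted 0.019). Within the 15 libraries the Ivl difference was 0.65 log2 with 3 tumours against 4 skin samples, where an exact p of 0.057 was found and 0.029 is the smallest possible.

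Braf, the gene that carries the allele, went the other way. Skin held 122.0, 57.7, 66.9 and 59.8 CPM, and skin 1 stood far above the other 3. The K5 tumours were at 24.1, 34.4, 36.2, 37.6 and 40.0 CPM, and the K14 tumours at 41.3, 45.9, 43.1 and 41.2 CPM. Ivl tumours ranged from 43.0 to 84.1 CPM with a median of 45.1. All K5 and K14 tumours lay below all skin libraries, whereas Ivl 2 (84.1 CPM) and Ivl 3 (63.1 CPM) lay within the range of skin.

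The fall of Braf in K5/K14 tumours, -1.0 ± 0.20 log2, had an edgeR adjusted p of 0.00044. Without skin 1 it was -0.69 log2 (adjusted p = 0.007). In Ivl tumours the adjusted p was 0.082 over all libraries. With all libraries kept it was called by DESeq2 (-0.64 log2, adjusted p = 0.035) and by edgeR after edgeR's own expression filter (-0.65 log2, adjusted p = 0.030). The call also depended on which Ivl tumours were included: it was -0.68 log2 (adjusted p = 0.014) without Ivl 2 and -0.82 ± 0.21 log2 (adjusted p = 0.0040) within the 15 libraries, which hold neither Ivl 2 nor Ivl 3. Without skin 1 it was -0.19 log2 (adjusted p = 0.48). The direction was downward in each of these fits.

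The libraries high in Braf were also high in nuclear and in muscle RNA. Rn7sk, a nuclear RNA that is made without a poly(A) tail, was at 1374 to 2135 CPM in the 4 skin libraries, at 1239 CPM in Ivl 2 and at 813.6 CPM in Ivl 3. The other 13 tumours held between 2.21 and 15.9 CPM of it. The same 2 tumours also held the most skeletal muscle RNA: the sum of 6 muscle markers was 3698 and 1184 CPM, against 2125 to 6221 CPM in skin and at most 346.6 CPM in the other tumours. Malat1, a nuclear long non-coding RNA, was at 4772 to 9447 CPM in skin, at 1847 CPM in Ivl 2 and at 9081 CPM in Ivl 3, against 686.3 to 1452 CPM in the other tumours. Ivl 2 and Ivl 3 belong to the set of 4 libraries that carry the trace of the batch adjustment. Ivl 1 and K5 1 of the same set held the least Rn7sk of all libraries, 2.21 and 2.72 CPM. How far the adjustment shaped these levels and those of Braf was not tested. These genes were chosen after the values had been seen, and their part in the result was not tested. The paper describes poly(A) libraries made from tumour RNA and does not name skin at that step. Rn7sk, made without such a tail, set all 4 skin libraries apart from 13 tumours. Whether skin and tumour RNA was prepared in the same way was not tested. This limit applies to every comparison with skin, for the genes that rose as well as for Braf. In bulk RNA, fewer cells of a type and less RNA per cell cannot be told apart.

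**Figure D2:**
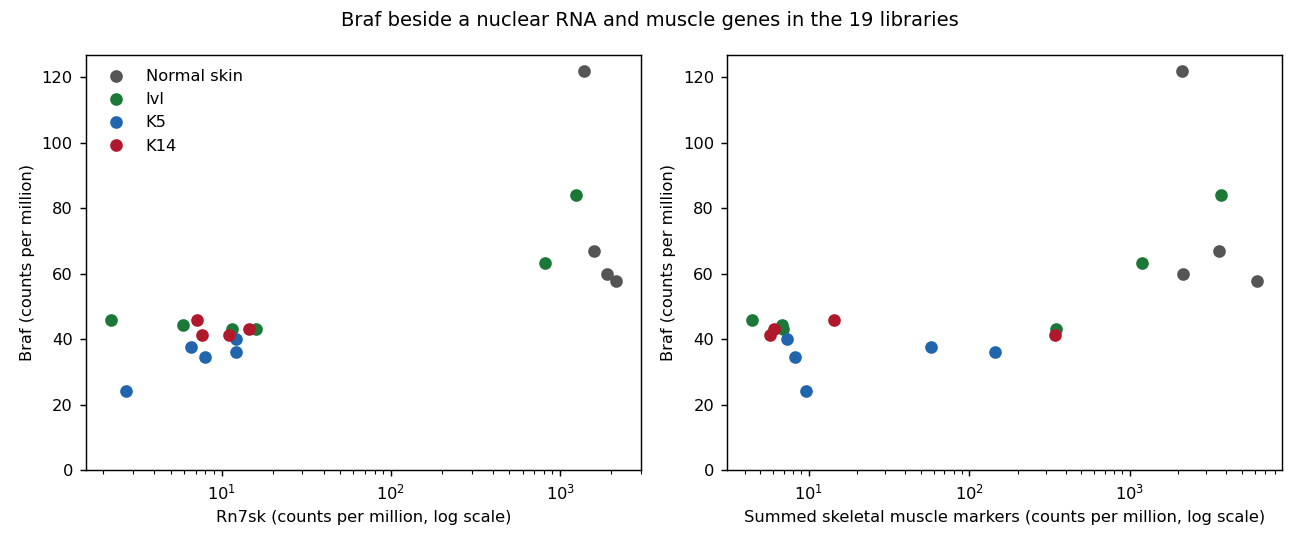
Braf in CPM against Rn7sk (left) and against the summed skeletal muscle markers (right), both on log axes, with 1 point per library. The 4 skin libraries, Ivl 2 and Ivl 3 lie to the right with Braf between 57.7 and 122.0 CPM, and the other 13 tumours lie to the left with Braf between 24.1 and 45.9 CPM. Ivl 2 and Ivl 3 belong to the set of 4 libraries that carry the trace of the batch adjustment.

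Among the libraries with over 100 CPM of Rn7sk, the 2 Ivl tumours could be compared with the 4 skin samples. None of the 7 genes was called there by edgeR, and of all genes 0.694% were called higher and 0.586% lower. Hras was higher by 0.81 log2 (adjusted p = 0.081), Map2k1 by 0.81, Mapk3 by 0.57, Map2k2 by 0.48 and Nras by 0.45. Braf differed by -0.15 log2 (adjusted p = 0.87) and Araf by 0.10. With Ivl 2 and Ivl 3 left out instead, 5 of the 7 genes were called higher and 1 lower in Ivl tumours, beside 22.3% and 32.9% of all genes, with Braf lower by 0.83 log2 (adjusted p = 0.0035). Ivl 2 and Ivl 3 belong to the batch-adjusted set of 4 and were picked for a skin-like level of Rn7sk. With 2 tumours picked in this way few calls were likely beforehand, so their low number cannot be read as likeness to skin. Both comparisons were added after seeing the data.

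Part of the annotated Braf gene overlaps another gene. It shares 146 exon bases, or 1.05% of its exon length, with Ndufb2 on the opposite strand. Whether strand was used in counting is not given in the sources used here, so reads in that stretch cannot be assigned with certainty. Ndufb2 was at 8.55 to 19.2 CPM over the 19 libraries.

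Araf encodes a RAF kinase with weaker activity towards MEK that also pairs with the other RAF proteins. It was at 57.7, 67.5, 48.4 and 46.5 CPM in skin and from 41.5 to 71.5 CPM in Ivl tumours, with a median of 49.8. The K5 tumours held 50.6, 57.7, 52.6, 49.7 and 50.4 CPM and the K14 tumours 57.6, 68.3, 42.3 and 44.8 CPM. All groups overlapped, and the group means, 52.1 to 55.0 CPM, lay closer together than 1 SD of any group. The edgeR adjusted p was 0.68 in Ivl and 0.71 in K5/K14 tumours.

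The balance of the RAF genes therefore shifted through Braf. The log2 ratio of Araf to Braf counts was -1.08, 0.23, -0.47 and -0.36 in skin. It was 1.07, 0.75, 0.54, 0.40 and 0.33 in K5 tumours and 0.48, 0.57, -0.03 and 0.12 in K14 tumours. Ivl tumours ranged from -0.23 to 0.22. Braf had more counts than Araf in 3 of 4 skin samples and in Ivl 1, Ivl 2, Ivl 3 and K14 3.

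Against skin the mean ratio was higher by 0.89 log2 in K5/K14 tumours (n = 9 against 4, two-sided exact permutation p = 0.0042, adjusted over 12 tests 0.019). The gap was 0.40 log2 in Ivl tumours (exact permutation p = 0.14). Ivl tumours lay 0.49 log2 below K5/K14 tumours (n = 6 against 9, exact permutation p = 0.0062, adjusted 0.019). That last difference was 0.24 log2 within the 15 libraries (exact permutation p = 0.15), so its call rested on the set of 4 libraries. The counts compare each gene with itself between libraries, since Braf has the longer transcript. Per kilobase of annotated exon, skin held 5.53 ± 2.20 CPM of Braf and 8.41 ± 1.47 CPM of Araf, and K5/K14 tumours held 2.76 ± 0.458 and 8.05 ± 1.19 CPM (mean ± SD).

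**Figure D3:**
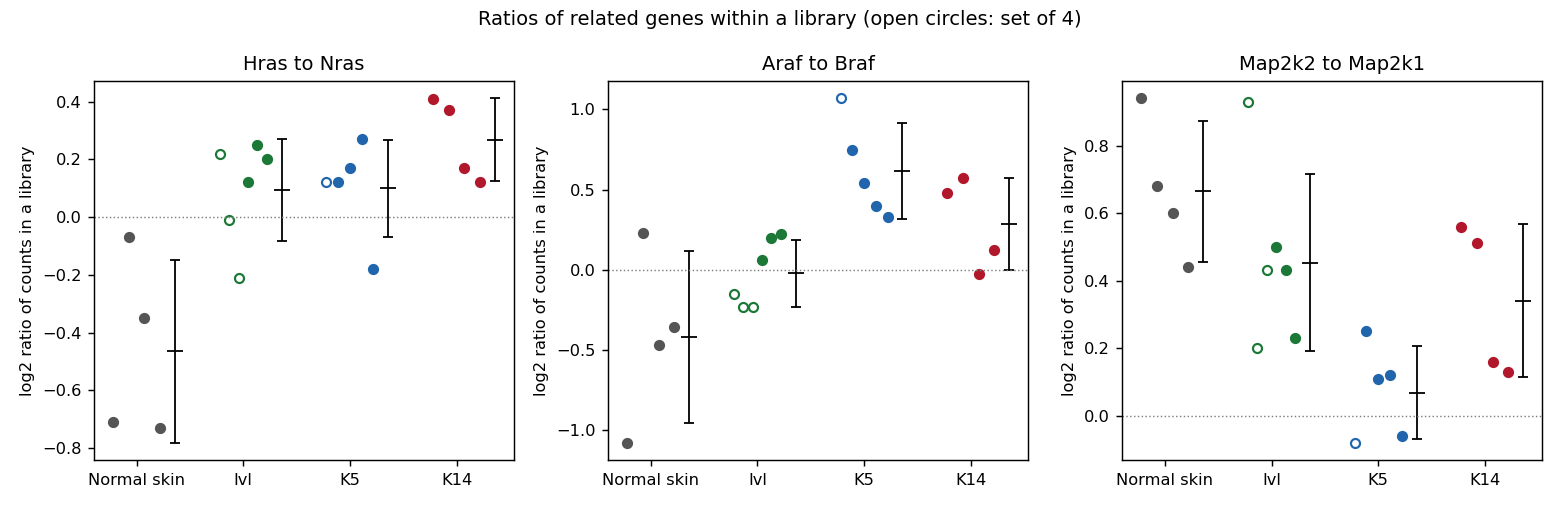
log2 ratio of counts of 2 related genes within each library, by group; open circles are the set of 4 libraries and the bar beside each group is the mean ± SD. The Hras to Nras ratio is below 0 in the 4 skin libraries, the Araf to Braf ratio is highest in K5 1 (1.07), and the Map2k2 to Map2k1 ratio is lower in K5 tumours than in skin.

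Map2k1 encodes MEK1, a kinase that phosphorylates ERK. Skin held 32.7, 37.4, 46.6 and 52.1 CPM. The K5 tumours were at 141.7, 120.8, 139.6, 137.1 and 143.6 CPM and the K14 tumours at 89.6, 92.7, 140.6 and 129.1 CPM. Ivl tumours ranged from 72.3 to 114.3 CPM with a median of 89.8. No tumour overlapped skin, and the K14 tumours fell into a lower and a higher pair. The rise was 1.12 ± 0.18 log2 in Ivl tumours (edgeR adjusted p = 6.7e-05) and 1.58 ± 0.17 log2 in K5/K14 tumours (edgeR adjusted p = 1.6e-06).

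Map2k2 encodes MEK2, the closely related partner of MEK1. It was at 62.8, 59.9, 70.5 and 70.7 CPM in skin. The K5 tumours held 133.8, 143.8, 150.4, 149.3 and 137.9 CPM and the K14 tumours 131.7, 131.7, 157.2 and 140.9 CPM. Ivl tumours ranged from 97.7 to 146.2 CPM with a median of 132.5. All tumours lay above skin, with Ivl 2 and Ivl 3 the lowest. The rise was 0.93 ± 0.12 log2 (edgeR adjusted p = 2.1e-05) in Ivl and 1.1 ± 0.12 log2 (edgeR adjusted p = 1.5e-06) in K5/K14 tumours.

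Map2k1 rose more than Map2k2 in K5/K14 tumours. The log2 ratio of Map2k2 to Map2k1 counts was 0.94, 0.68, 0.60 and 0.44 in skin, between -0.08 and 0.25 in K5 tumours and between 0.13 and 0.56 in K14 tumours. Ivl tumours ranged from 0.20 to 0.93. The K5/K14 mean lay 0.48 log2 below skin (n = 9 against 4, two-sided exact permutation p = 0.0056, adjusted over 12 tests 0.019). The Ivl difference from skin was -0.21 log2 (exact permutation p = 0.21), and that from K5/K14 tumours 0.27 log2 (exact permutation p = 0.054, adjusted 0.11).

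Mapk3 encodes ERK1, the last kinase of the cascade. Skin held 58.1, 66.3, 93.7 and 114.4 CPM. The K5 tumours were at 198.0, 192.2, 251.3, 223.6 and 207.1 CPM and the K14 tumours at 174.5, 180.0, 243.4 and 217.1 CPM. Ivl tumours ranged from 103.5 to 213.7 CPM with a median of 190.6. Only Ivl 3, at 103.5 CPM, fell within the range of skin, below skin 4. The rise was 1.09 ± 0.20 log2 in Ivl tumours (edgeR adjusted p = 0.00029) and 1.33 ± 0.19 log2 in K5/K14 tumours (edgeR adjusted p = 1.7e-05).

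Per kilobase of annotated exon Mapk3 was the most abundant of the 7 genes in each group. Its mean ± SD was 36.8 ± 11.4 CPM per kilobase in skin, 78.5 ± 17.8 in Ivl, 95 ± 10.5 in K5 and 90.3 ± 14.4 in K14 tumours. In skin Hras (19.3 ± 2.15) and Nras (18.6 ± 2.21) came next and did not differ beyond their spread, followed by Map2k1 (12.4 ± 2.59) and Map2k2 (11.7 ± 0.968), which did not either. In K5 tumours, where the ranges of mean ± SD of Map2k1 and Nras overlapped, the order was Mapk3, Hras (54.1 ± 4.12), Map2k1 (40.3 ± 2.69), Nras (35.4 ± 3.54), Map2k2 (25.3 ± 1.26), Araf (7.98 ± 0.50) and Braf (2.49 ± 0.442). Braf was the lowest of the 7 per kilobase in each group.

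The counts of genes that rose or fell were also read by overlap and by level. The values of a group did not overlap with skin, higher, for 13.2% (Ivl) and 16.7% (K5/K14) of all genes, and lower for 9.01% and 24.6%. Of the 7 genes 4 were higher without overlap in Ivl tumours and 5 in K5/K14 tumours, where Braf was lower without overlap. The 7 genes are well expressed, and among the 9965 genes with a mean of at least 10 CPM the shares called were 48.1% higher and 6.13% lower in Ivl tumours, and 52.4% higher and 15.8% lower in K5/K14 tumours. A rise over skin was thus common among genes of this level, and a fall was less so. The median log2 fold change of the 7 genes was 0.93 in Ivl and 1.1 in K5/K14 tumours. That of all genes was -0.46 and -0.60, and that of genes of at least 10 CPM was 0.37 and 0.41. Among the fold changes of all genes that of Braf stood at percentile 48.9 (Ivl) and 42.5 (K5/K14), close to the median. Within the 15 libraries 22.2% of genes were called higher and 32.7% lower in Ivl tumours, and 23.9% and 42.3% in K5/K14 tumours, and 5 of the 7 were called higher and 1 lower in each. The tumour groups share the 4 skin libraries, so their results against skin are not independent. The level of Rn7sk also set these skin libraries apart from most tumours. Whether a difference in RNA preparation had a part in the rises and falls against skin was not tested.

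**Figure D4:**
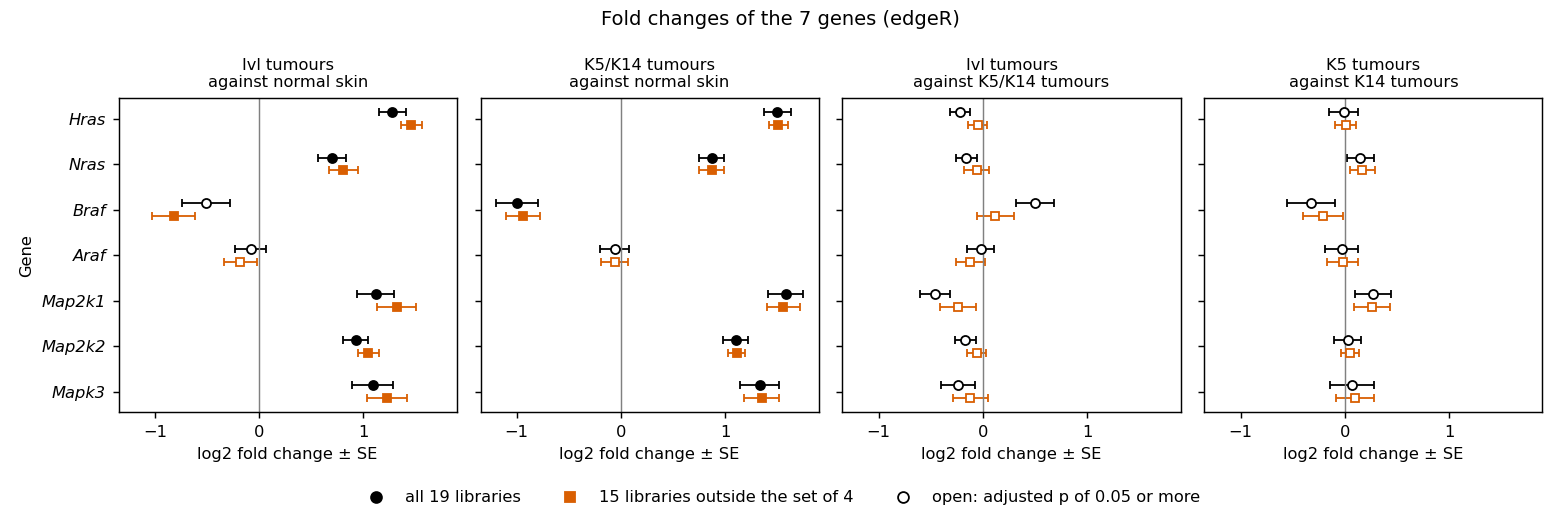
log2 fold change ± SE of the 7 genes in the 4 comparisons, in all 19 libraries (black circles) and in the 15 libraries outside the set of 4 (orange squares); open symbols have an edgeR adjusted p of 0.05 or more. Hras, Nras, Map2k1, Map2k2 and Mapk3 are higher than skin in both tumour groups, and all symbols of the comparisons between tumours are open.

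Scaling moved all tumour-to-skin values together. With size factors by the median-of-ratios method the median log2 fold change of all genes went from -0.46 to -0.59 in Ivl tumours and from -0.60 to -0.71 in K5/K14 tumours. With TMM over protein-coding genes alone the medians were -0.65 and -0.81, and with library totals alone -1.13 and -1.40. The share of higher genes among all calls fell with it, from 56.8% to 45.6%, 40.8% and 15.6% in Ivl tumours and from 37.4% to 33.0%, 29.7% and 13.5% in K5/K14 tumours.

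Hras, Map2k1, Map2k2 and Mapk3 were higher than skin, and Braf lower, under each of these 4 scalings. With library totals alone Hras was higher by 0.55 and 0.68 log2, Map2k1 by 0.41 and 0.77, Mapk3 by 0.38 and 0.54 and Map2k2 by 0.21 and 0.29 in Ivl and K5/K14 tumours. The Map2k2 value in Ivl tumours was then no longer called (adjusted p = 0.058). Nras went to -0.01 and 0.04 log2 and was called in neither. Araf became lower by 0.77 log2 in Ivl tumours (edgeR adjusted p = 0.0053) and by 0.87 in K5/K14 tumours (edgeR adjusted p = 0.00042). Of all genes 8.95% were then called higher and 48.3% lower in Ivl tumours, and 10.1% and 64.5% in K5/K14 tumours. The Braf fall in Ivl tumours was called under the 3 other scalings, at -0.64, -0.71 and -1.19 log2.

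**Figure D5:**
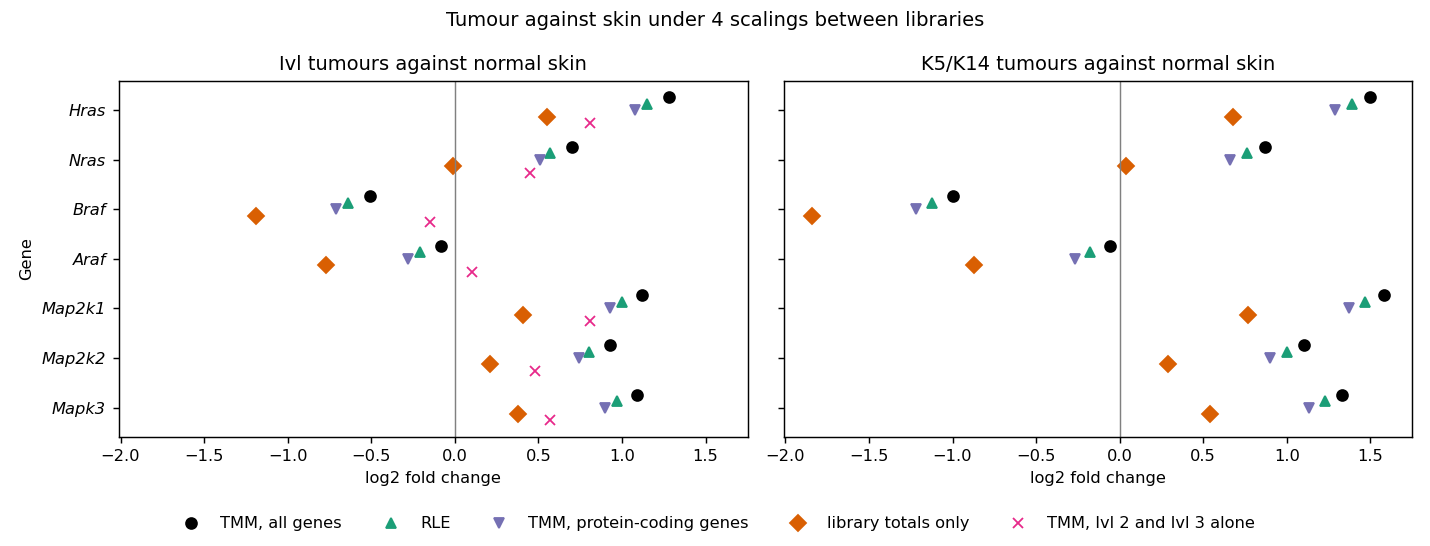
log2 fold change of the 7 genes against skin in Ivl (left) and K5/K14 tumours (right) under 4 scalings between libraries, and for Ivl 2 and Ivl 3 alone against skin (crosses). Values shift to the left together from TMM to library totals, which takes Nras to -0.01 and 0.04 and Araf to -0.77 and -0.87.

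The sequences before the gene starts were searched for short motifs as a description. Any link between these motifs and the changes against skin was not tested. RefSeq promoters on GRCm38.p6 (250 bases before to 50 after the start) matched 6 of the 7 genes, all but Mapk3. The 150 bases before the start are shown for Hras and Map2k1, which rose, for Braf and for Araf, each 5′ to 3′ on the gene's strand. Capitals mark the GC box GGGCGG and the motif TGACGTC of cyclic AMP response elements, on either strand, with overlapping matches merged. Nras and Map2k2, which also rose, are not shown. The motifs were chosen after the sequences had been seen.
Hras, chr7:141194005-141194154, minus strand: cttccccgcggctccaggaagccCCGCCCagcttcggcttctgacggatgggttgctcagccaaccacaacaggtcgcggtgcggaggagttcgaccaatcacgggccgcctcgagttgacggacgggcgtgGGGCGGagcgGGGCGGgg
Map2k1, chr9:64253606-64253755, minus strand: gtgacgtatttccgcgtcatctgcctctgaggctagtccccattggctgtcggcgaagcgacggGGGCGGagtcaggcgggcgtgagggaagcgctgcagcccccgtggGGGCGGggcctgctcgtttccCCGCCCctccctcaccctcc
Braf, chr6:39725464-39725613, minus strand: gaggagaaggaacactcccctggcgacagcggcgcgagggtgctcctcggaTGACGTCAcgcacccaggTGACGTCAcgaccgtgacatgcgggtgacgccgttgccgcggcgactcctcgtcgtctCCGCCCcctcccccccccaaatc
Araf, chrX:20848393-20848542, plus strand: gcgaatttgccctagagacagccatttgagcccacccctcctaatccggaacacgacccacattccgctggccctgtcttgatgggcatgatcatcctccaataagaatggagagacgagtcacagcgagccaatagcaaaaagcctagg

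In the full 300 bases GGGCGG was found in 5 of the 6 promoters, with 4 matches in Map2k1, 3 in Hras, 2 each in Nras and Map2k2 and 1 in Braf, and not in Araf. It was found in 35.7% of all 32851 promoters. TGACGTC was found in Braf only, at 2 places, and in 3.21% of all promoters. The AP-1 motif TGANTCA and the ETS motif CCGGAAG were in none of the 6, and the E-box CACGTG was in Nras alone. All promoters held these 3 motifs in 7.81%, 8.86% and 7.15%. A match describes the letters and does not show a site in use.

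Ivl tumours are compared with K5/K14 tumours, which differ from them in the cells in which the allele was switched on. Per the paper these are committed basal and suprabasal cells in the Ivl model and basal stem cells in the K5 and K14 models. The inducing agent differed as well. The paper also reports a later tumour onset and more lesion sites in the Ivl model. Most libraries with the trace of the batch adjustment were Ivl tumours. The targeted cell population cannot be told apart from these differences here, and its own part was not tested. None of the 7 genes was called by edgeR. Map2k1 differed most beyond its error, by -0.46 ± 0.14 log2 (edgeR adjusted p = 0.082). It was called lower by DESeq2, at -0.47 log2 with an adjusted p of 0.029 and 4.36% of all genes called higher and 2.39% lower, and by edgeR without K14 1, at -0.50 log2 (adjusted p = 0.048). Within the 15 libraries it was -0.24 ± 0.17 log2 (adjusted p = 0.65). Braf differed by 0.50 ± 0.18 log2 (edgeR adjusted p = 0.13), and by 0.12 ± 0.18 (adjusted p = 0.88) within the 15 libraries. The Hras, Nras, Map2k2 and Mapk3 differences were between -0.24 and -0.16 log2, and Araf differed by -0.02 ± 0.13.

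K5 and K14 tumours were also compared, since they were joined for the other tests. Of all genes tested, 0 were called by edgeR in either direction, with 1945 at an unadjusted p under 0.05 and 201 called by DESeq2. None of the 7 genes was called by either tool. All 5 K5 tumours were below all 4 K14 tumours in Braf, by 0.32 ± 0.23 log2 on average (edgeR adjusted p = 0.89). Values did not overlap between K5 and K14 tumours for 2.04% of all genes with K5 higher and for 2.4% with K5 lower. Map2k1 was at 136.5 ± 9.14 CPM in K5 and 113.0 ± 25.7 CPM in K14 tumours (mean ± SD), a difference of 0.27 ± 0.17 log2 (edgeR adjusted p = 0.87). The other 5 differences were between -0.03 and 0.15 log2.

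The rest of the pathway was read in 8 lists, each against skin in Ivl and then in K5/K14 tumours. All their genes but Eras were measured, and none of the listed genes was called between Ivl and K5/K14 tumours or between K5 and K14 tumours. Counts are given under TMM, and under library totals alone at the end of each list. For comparison, 20.4% of all genes rose in Ivl and 23.2% in K5/K14 tumours, and 48.1% and 52.4% of those of at least 10 CPM, whose median log2 fold changes were 0.37 and 0.41. Falls were called for 15.5% and 38.9% of all genes, and for 6.13% and 15.8% of those of at least 10 CPM. Under library totals alone 8.95% of all genes rose and 48.3% fell in Ivl tumours, and 10.1% rose and 64.5% fell in K5/K14 tumours. Of 21 partners, scaffolds and chaperones of RAF, MEK and ERK, 16 rose and 1 fell in Ivl tumours and 17 rose and 2 fell in K5/K14 tumours, with medians of 0.78 and 0.75 log2. Sfn, the 14-3-3 protein of stratified epithelia, rose by 2.59 ± 0.33 and 3.1 ± 0.33 log2. Lamtor2, part of a scaffold that holds MEK and ERK on late endosomes, rose by 1.39 ± 0.17 and 1.46 ± 0.16 log2. Lamtor1 of the same complex rose by 1.37 ± 0.15 in K5/K14 tumours, and Cdc37, the chaperone that hands kinases to HSP90, by 1.28 ± 0.18 in Ivl tumours. Ksr1, a scaffold for RAF and MEK, fell by 1.29 ± 0.30 and 0.68 ± 0.28 log2. Ksr2 fell in K5/K14 tumours, from 0.232 to 0.0150 CPM. Under library totals alone, 4 of the 21 rose and 4 fell in Ivl tumours and 7 rose and 5 fell in K5/K14 tumours.

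Of 6 genes for the lipid modification that anchors RAS in membranes, 5 rose in each tumour group, with medians of 0.81 and 0.92 log2, beside 48.1% and 52.4% of all genes of at least 10 CPM. Golga7, a partner of a RAS palmitoyltransferase, rose by 1.32 ± 0.21 and 1.47 ± 0.20 log2. Icmt, which methylates the processed RAS tail, rose by 0.80 ± 0.13 and 1.02 ± 0.13 log2. Fnta, a farnesyltransferase subunit, rose by 0.91 ± 0.16 log2 in Ivl tumours, and Rce1, the protease of that tail, by 0.90 ± 0.13 log2 in K5/K14 tumours. With library totals alone 1 of the 6 rose and 1 fell in each tumour group, and Icmt, Fnta and Rce1 were no longer called.

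The regulators of RAS went in both directions. Of 13 inhibitors, 2 rose and 2 fell in Ivl tumours and 3 rose and 4 fell in K5/K14 tumours, with medians of -0.14 and -0.24 log2. Among all genes 15.5% fell in Ivl and 38.9% in K5/K14 tumours. Nf1, which encodes the GTPase-activating protein neurofibromin, fell from 63.7 CPM in skin to 21.4 and 27.6 CPM, or by 1.58 ± 0.39 and 1.2 ± 0.35 log2. Spred3, of a family of RAS pathway inhibitors, rose from 3.41 to 13.1 and 28.1 CPM, by 1.94 ± 0.48 and 3.04 ± 0.49 log2. Lztr1, an adaptor for RAS degradation, rose by 0.28 ± 0.11 and 0.38 ± 0.10 log2, the first of these not called within the 15 libraries (adjusted p = 0.071). In K5/K14 tumours Rasa1 rose by 0.42 ± 0.13 and Rasa2 fell by 0.44 ± 0.16 log2. Under library totals 1 of the 13 rose and 12 fell in each tumour group, where 48.3% (Ivl) and 64.5% (K5/K14) of all genes fell. Lztr1 and Rasa1 turned to falls of 0.41 to 0.43 log2.

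Of 12 activators and adaptors, 2 rose and 2 fell in Ivl tumours and 3 rose and 4 fell in K5/K14 tumours, with medians of -0.22 and -0.21 log2. The shares of all genes that fell were 15.5% and 38.9%. The phosphatase gene Ptpn11 rose by 0.37 ± 0.13 and 0.40 ± 0.12 log2 and the adaptor gene Shc1 by 0.37 ± 0.14 and 0.58 ± 0.14. Grb2, also an adaptor, rose by 0.40 ± 0.14 log2 in K5/K14 tumours. The genes that fell were exchange factors, which load RAS or its relatives with GTP. Within the 15 libraries 6 activators fell in each tumour group, and among the inhibitors 4 fell in Ivl and 5 in K5/K14 tumours. There 32.7% and 42.3% of all genes fell. Rasgrf1 fell by 1.23 ± 0.42 and Rasgrp2 by 1.66 ± 0.47 log2 in Ivl tumours. Rasgrf2 fell by 3.02 ± 0.62, Rasgrp4 by 2.09 ± 0.45 and Sos1 by 0.42 ± 0.13 log2 in K5/K14 tumours. Of the 5 other RAS family genes measured, 2 rose in Ivl tumours, and 3 rose and 1 fell in K5/K14 tumours, with medians of 0.68 and 0.63. Rit1 rose by 1.05 ± 0.19 and 0.99 ± 0.18 log2, Rras2 rose by 1.28 ± 0.28 and Mras fell by 0.76 ± 0.28 log2 in K5/K14 tumours. With library totals alone none of the activators rose, and 11 of 12 fell in Ivl and 10 in K5/K14 tumours, beside 48.3% and 64.5% of all genes. Ptpn11, Grb2 and, in Ivl tumours, Shc1 turned to falls. None of the 5 RAS family genes then rose, and 1 fell in each tumour group.

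Below ERK, 3 of 7 kinases that it activates rose and 1 fell in Ivl tumours, and 2 rose in K5/K14 tumours, with medians of 0.37 and 0.18 log2. Rps6ka4, which encodes the nuclear kinase MSK2, rose from 32.9 CPM to 172.9 and 211.1 CPM, by 2.40 ± 0.31 and 2.68 ± 0.30 log2. Rps6ka1, for RSK1, rose by 0.73 ± 0.16 and 0.86 ± 0.16 log2. In Ivl tumours Rps6ka5 rose by 0.51 ± 0.18 and Rps6ka2 fell by 0.76 ± 0.29 log2. Of 10 genes used as a measure of the pathway's transcriptional output, 4 rose in Ivl and 5 in K5/K14 tumours, none fell in either, and the medians were 0.46 and 0.73 log2. These shares were close to the 48.1% and 52.4% of all genes of at least 10 CPM. Within the 15 libraries Spry4, which encodes a feedback inhibitor of the pathway, fell in Ivl tumours by 1.66 log2 (edgeR adjusted p = 0.037). Phlda1 rose by 2.47 ± 0.54 and 3.0 ± 0.54 log2 and the receptor gene Epha2 by 1.22 ± 0.31 and 1.47 ± 0.30. Ccnd1, the cyclin of the entry into the cell cycle, rose by 1.21 ± 0.30 log2 in Ivl tumours, and the transcription factor gene Etv4 by 1.58 ± 0.29 in K5/K14 tumours. Scaled by totals, 1 of the 7 kinases rose in each group, and 4 fell in Ivl and 5 in K5/K14 tumours. Of the 10 output genes 1 rose and 3 fell in Ivl and 3 rose and 4 fell in K5/K14 tumours, with medians of -0.25 and -0.12.

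Of 13 kinases of the parallel JNK, p38 and ERK5 branches, 5 rose and 1 fell in Ivl tumours and 6 rose and 2 fell in K5/K14 tumours, with medians of 0.20 and 0.27 log2. Mapk13, the p38 kinase of epithelia, rose by 1.63 ± 0.19 and 1.90 ± 0.19 log2. Map2k3 rose by 1.19 ± 0.18 and 1.4 ± 0.17 and Map2k4 by 1.17 ± 0.16 and 1.48 ± 0.15 log2. Mapk12, the p38 kinase of skeletal muscle, fell by 0.82 ± 0.30 and 1.03 ± 0.27 log2, and Mapk10 fell in K5/K14 tumours, from 0.200 to 0.0364 CPM. Scaled by library totals, 3 of the 13 rose and 9 fell in each tumour group. In K5/K14 tumours 6 of 6 muscle markers fell and 8 of 8 keratinocyte markers rose, and in Ivl tumours 0 and 6 did. Within the 15 libraries 2 of 6 muscle markers fell and 6 of 8 keratinocyte markers rose in Ivl tumours. Their part in the changes of these lists was not tested.

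Across the 15 tumours the levels of the 7 genes varied together in part. The correlations are Pearson's r of log2 CPM over 15 tumours, which share the scaling between libraries, and r over the 11 tumours outside the set of 4 follows each. Hras went with Map2k2 (0.93, then 0.75), Map2k2 with Mapk3 (0.88, then 0.81) and Nras with Map2k1 (0.74, then 0.78). Braf went against Hras (-0.75, then -0.45) and Map2k2 (-0.70, then -0.45). Araf went against Map2k2 (-0.57, then -0.46), Nras (-0.53, then -0.50) and Mapk3 (-0.45, then -0.57), and its r with Braf was 0.38, then -0.07.

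Among 9965 genes of at least 10 CPM, those most like Braf over the 15 tumours were Tnrc6b (r = 0.981), Phc3 (0.977) and Ppp6r2 (0.977). Over the 11 tumours outside the set of 4 their r was 0.874, 0.813 and 0.780. The most alike was Lamtor1 for Hras (0.945, then 0.868), Ubxn4 for Nras (0.947, then 0.954) and Parp10 for Araf (0.866, then 0.750). It was Ippk for Map2k1 (0.953, then 0.895), Arpc2 for Map2k2 (0.958, then 0.741) and Fam129b for Mapk3 (0.969, then 0.887). Each gene named here was picked as the highest of 9965.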

How the data were processed

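RNA-seq of 19 samples was analysed from 1 table of gene counts. Per the labels and the study's methods, the authors trimmed reads with Trim Galore, aligned them with HISAT2 2.1.0 to GRCm38, counted them with featureCounts (Subread 1.6.3) and adjusted for a sequencing batch with ComBat-seq. The deposited values are therefore estimated counts, whole numbers with no scaling for library size. Plain counts had been assumed at the design stage. The count model was kept. The paper gives batches of 4 and 15 samples, sequenced at different times. Which library was in which batch, and whether pairs and strand were used, is not given in the sources used here. Of 34807 identifiers, 34694 matched GENCODE M21.

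A gene entered the tests if any 1 library had 5 or more counts of it. Differences were tested by edgeR 4.0.16 (TMM, robust quasi-likelihood F test, R 4.3.3) in a fit of 3 groups, with K5 and K14 joined, and in a fit of 4 groups for K5 against K14. p-values were adjusted by Benjamini-Hochberg over all genes, with a threshold of 0.05. DESeq2 1.42.0 and other scalings, filters and sample sets were alternatives. The edgeR step was tested on simulated data in which a small set of genes changed in Ivl tumours, as many up as down. Such data hold no shift in scale between tumours and skin, so they cannot test the effect of the scaling. Ratios of counts, with 2 added to each, were compared by two-sided exact permutation tests over samples, 12 in all. No 2 libraries of a group agreed within sampling noise in 37 pairs.

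The named genes are the 7 genes, for each list and comparison the 3 genes of lowest adjusted p that rose and the 3 that fell, and the most correlated genes. Some genes that this rule names are not reported here. Ndufb2, Rn7sk and Malat1, and the list counts with library totals alone, were added after the values were seen. The genes and lists were chosen with earlier results of these data known. The marker lists were keratinocyte, fibroblast, skeletal muscle, adipocyte, leukocyte, endothelial and melanocyte genes. Depth limits counts by counting error only.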

Additional observations from a re-analysis of the deposited data

Results flagged for a closer look

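In 40 sets of values (7 genes and 3 ratios in 4 groups) 2 libraries stood apart from their group by Dixon's criterion, where chance gives about 1 in 20. Braf in skin 1, at 122.0 CPM, was the highest of the 4 skin libraries, the others being at 57.7 to 66.9 CPM. Map2k1 in K5 2, at 120.8 CPM, was the lowest of the 5 K5 tumours, the others being at 137.1 to 143.6 CPM. Without skin 1 the Braf differences from skin were -0.19 log2 in Ivl and -0.69 log2 in K5/K14 tumours. Without K5 2 the Map2k1 rise in K5/K14 tumours stayed called.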

How the results depend on the processing

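The 4 comparisons were recomputed under other scalings, filters, tools and sample sets. Of 315 values of single genes outside the leave-outs, 291 kept their direction and their side of the threshold. Against skin, 11515 genes changed in Ivl tumours. That count was 18328 with library totals only, 17566 within the 15 libraries, 17653 without Ivl 2 and Ivl 3, and 402 (0 of the 7 genes) with only Ivl 2 and Ivl 3. Between Ivl and K5/K14 tumours 756 genes changed, against 2161 (1 of the 7 genes) by DESeq2, 131 within the 15 libraries and 449 with the set of 4 as a covariate. Between K5 and K14 tumours the count of 0 became 201 by DESeq2, 17 within the 15 libraries and 2 when these groups were fitted alone.

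Directions turned with library totals only for Nras in Ivl tumours against skin (-0.01), for Araf in Ivl against K5/K14 tumours (0.10) and for Map2k2 in K5 against K14 tumours (-0.03). For Hras in K5 against K14 tumours the value was 0.01 within the 15 libraries and 0.05 with the covariate. Araf in Ivl 2 and Ivl 3 against skin was 0.10. Within the 15 libraries the Hras to Nras ratio was 0.65 in Ivl tumours against skin and no longer passed the test, and 0.01 in Ivl against K5/K14 tumours. The Araf to Braf ratio was then -0.24 in Ivl against K5/K14 tumours and no longer passed. The cause was not tested, beyond the smaller number of samples within the 15 libraries.

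Leaving out 1 library at a time gave 127 (without K5 1) to 1328 (without K14 1) genes between Ivl and K5/K14 tumours, and 0 to 1 of the 7 genes. Araf ranged from -0.19 to 0.02 in Ivl and from -0.15 to 0.05 in K5/K14 tumours against skin, from -0.13 to 0.04 between Ivl and K5/K14 tumours and from -0.12 to 0.11 between K5 and K14 tumours. There Hras ranged from -0.04 to 0.03 and Map2k2 from -0.00 to 0.09. The Araf to Braf ratio of Ivl tumours against skin ranged from 0.18 (without skin 1) to 0.62 (without skin 2). The Map2k2 to Map2k1 ratio ranged from -0.31 (without Ivl 1) to -0.12 in Ivl tumours against skin, from 0.17 to 0.32 (without Ivl 2) in Ivl against K5/K14 tumours, and from -0.34 (without K14 4) to -0.20 in K5 against K14 tumours. The values without skin 2, Ivl 1, Ivl 2 and K14 4 had an unadjusted exact permutation p under 0.05, which was not adjusted over the 12 tests.

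With the replicate block 46 genes changed between Ivl and K5/K14 tumours, and Araf in K5 against K14 tumours became 0.01. The deviations of 25 pairs of samples with the same number had a median correlation of -0.00 (-0.50 to 0.44), 7 of them over 0.1, and 3 of 19 libraries correlated best with their own number, so the numbers were not taken to pair the samples. The 7 genes were well covered, with at least 1359 counts each in every library. The share of the remaining error that is due to counting, to the samples or to the batch adjustment was not tested.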
